A study of Homo sapiens with 3 samples.

Results

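The genes described here are FOS, JUN, JUNB, EGR1, ATF3, KLF6, MYC, DUSP6, SPRY2 and IER2, a set of 10 immediate early and mitogen-activated protein kinase (MAPK) feedback genes that was given as a list of names, with no measured value in the rule. Of the 10, 9 had a row among the 62680 rows of the expected-count table, and 7 of these were among the 12273 genes with enough counts to be compared, those averaging 1 CPM or more over the libraries (CPM is a count scaled to library size, and 1 CPM was 19.4 to 19.7 counts). ATF3, a stress-induced transcription factor, was not analysed here. The cells were HepG2, an established human line from a hepatocellular carcinoma, with a genotype labelled as wild type and grown in DMEM with fetal bovine serum and antibiotics. For 48 h the cells were given A740003 at 20 µM, A438079 at 20 µM, or PBS. The labels name both compounds as antagonists of P2X7, a channel opened by extracellular ATP. There was 1 library of total RNA per treatment, prepared with a SMARTer mRNA kit. No label names the solvent of the antagonists.

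Immediate early genes are transcribed within minutes of a growth factor, serum or stress signal, without new protein synthesis, and many of their transcripts are short-lived. ERK, a MAPK at the end of the RAS, RAF and MEK relay, drives many of them through factors bound at serum response elements. DUSP6 and SPRY2 are made in response to the same pathway and restrain it. In rodent liver, JUN, FOS and MYC are known for their induction as hepatocytes enter the cell cycle after partial hepatectomy.

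The regulatory sequence at the start of these genes is shown as a place where such factors can act. RefSeq promoter windows on GRCh38.p14, which run from 250 bases before the start site to 50 bases after it, were found for 8 of the 9 genes with a row. The 5 windows below belong to the transcription factor genes with a window, EGR1 at chr5:138465229-138465528 on the plus strand, FOS at chr14:75278578-75278877 on the plus strand, JUN at chr1:58783998-58784297 on the minus strand, JUNB at chr19:12791236-12791535 on the plus strand and KLF6 at chr10:3785160-3785459 on the minus strand. Each is written 5′ to 3′ on the strand of its gene. Capitals mark every match, on either strand, to the motifs searched: the CArG box of serum response factor, TGACTCA of AP-1, TGACGTCA of CREB, the ATF and JUN forms TGACATCA and TTACGTCA, CCGGAA of ETS factors, GCGGGGGCG of EGR factors, CACGTG of the E-box, GGGCGG of SP factors and TATAAA of the TATA box.
EGR1: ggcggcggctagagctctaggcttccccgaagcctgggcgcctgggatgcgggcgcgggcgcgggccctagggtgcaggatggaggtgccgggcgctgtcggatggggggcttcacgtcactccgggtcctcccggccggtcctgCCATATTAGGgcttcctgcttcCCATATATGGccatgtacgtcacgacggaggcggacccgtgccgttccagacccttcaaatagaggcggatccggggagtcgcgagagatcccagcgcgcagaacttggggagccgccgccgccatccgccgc
FOS: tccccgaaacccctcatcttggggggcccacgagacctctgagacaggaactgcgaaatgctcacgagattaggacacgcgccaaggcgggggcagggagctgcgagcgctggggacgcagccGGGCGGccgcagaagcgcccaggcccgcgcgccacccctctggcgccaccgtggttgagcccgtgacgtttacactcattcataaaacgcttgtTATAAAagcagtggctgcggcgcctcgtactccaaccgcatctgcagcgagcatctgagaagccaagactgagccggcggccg
JUN: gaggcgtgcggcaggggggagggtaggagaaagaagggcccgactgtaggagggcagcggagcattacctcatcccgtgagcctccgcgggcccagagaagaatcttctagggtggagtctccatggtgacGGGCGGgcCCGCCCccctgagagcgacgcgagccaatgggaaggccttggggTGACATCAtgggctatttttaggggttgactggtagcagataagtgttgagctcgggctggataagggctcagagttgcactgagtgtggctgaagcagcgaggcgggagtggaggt
JUNB: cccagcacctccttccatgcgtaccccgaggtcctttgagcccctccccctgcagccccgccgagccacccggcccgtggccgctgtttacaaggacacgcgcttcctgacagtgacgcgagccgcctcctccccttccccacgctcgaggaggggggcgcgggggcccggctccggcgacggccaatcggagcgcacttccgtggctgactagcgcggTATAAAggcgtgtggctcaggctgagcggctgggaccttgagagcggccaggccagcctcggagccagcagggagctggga
KLF6: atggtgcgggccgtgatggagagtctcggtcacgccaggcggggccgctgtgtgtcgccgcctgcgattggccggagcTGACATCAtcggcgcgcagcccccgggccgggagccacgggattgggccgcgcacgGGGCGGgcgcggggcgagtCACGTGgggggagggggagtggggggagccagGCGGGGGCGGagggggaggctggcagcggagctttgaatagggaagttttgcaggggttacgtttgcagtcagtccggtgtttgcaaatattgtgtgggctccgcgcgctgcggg

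EGR1 was the only one of the 8 genes whose window held a CArG box, the letters of a serum response element, and it held both CCATATTAGG and CCATATATGG, with first bases at -105 and -83 from the start site. A CArG box was found in 1.29% of all 35116 windows. JUN and KLF6 held TGACATCA, a sequence form bound by JUN and ATF proteins, at -67 and -172, against 2.61% of all windows. FOS and JUNB held TATAAA at -33 and -31, against 11.5% of all windows. GGGCGG, the SP-type box, was found in 5 of the 8 genes and in 45% of all windows. In KLF6 the match to GCGGGGGCG at -65 overlaps a GGGCGG match at -61. TGACTCA and TGACGTCA were found in none of the 8 genes, against 4.95% and 1.85% of all windows. DUSP6 had no match to any motif searched. A match describes letters and shows no bound factor, and a motif outside these windows was not searched for.

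Library totals ranged from 19375501 to 19735585 counts. All 12 hepatocyte markers had counts in every library, with a median of 525 FPKM (fragments scaled for gene length and library size) in A740003 cells, 562 FPKM in A438079 cells and 522 FPKM in PBS cells. Of 13 markers of blood, endothelial and fibroblast cells, 8, 7 and 8 were at 0 in A740003, A438079 and PBS cells, among them PTPRC, CD3E, VWF, CDH5, COL1A1, COL1A2 and DCN in every library. The summed level of these 13 was 850 FPKM in A740003 cells, 831 FPKM in A438079 cells and 942 FPKM in PBS cells. Nearly all of it was LYZ. CD68 stood at 24.5, 29.7 and 30.87 FPKM and ACTA2 at 14.83, 16.79 and 16.62 FPKM in A740003, A438079 and PBS cells. The part of these markers in any result was not tested. With 1 library per treatment no spread between cultures could be measured and no test was made. Ratios below are of TMM-scaled counts with a 95% interval, exact and conditional on the pair's total, that covers counting error only. A gene was counted as higher or lower when it differed at least 1.5-fold and its interval excluded 1.

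By FPKM, which is scaled for gene length, MYC, DUSP6, KLF6 and JUN were the most abundant members, SPRY2, IER2 and JUNB were lower, and FOS and EGR1 were close to 0. DUSP6 stood at 42.13 FPKM in A740003 cells, 36.46 FPKM in A438079 cells and 33.18 FPKM in PBS cells. EGR1 stood at 0.11 FPKM in A740003 cells, 0.12 FPKM in A438079 cells and 0.11 FPKM in PBS cells. The order of the 9 levels was the same in A438079 and PBS cells, with MYC first, and in A740003 cells DUSP6 stood above MYC. The highest level was 383 times the lowest in A740003 cells, 354 times in A438079 cells and 407 times in PBS cells. With 1 library each, whether neighbours in this order, such as KLF6 and JUN, differ beyond the spread of cultures could not be judged.

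**Figure D1:**
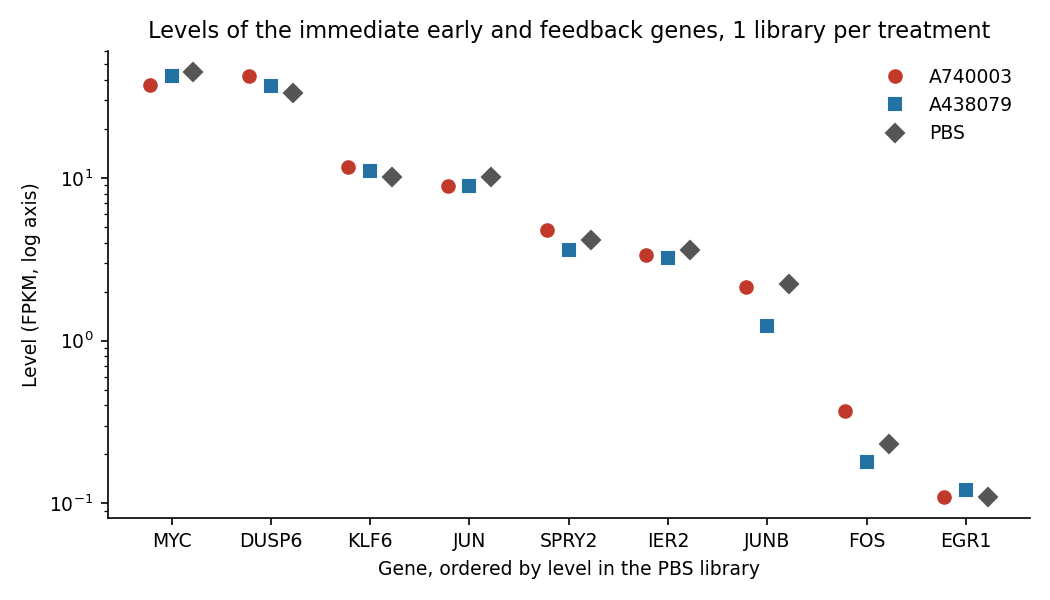
Points give the level (FPKM, log axis) of the 9 members with a row in A740003, A438079 and PBS cells, 1 library each, ordered by the PBS level. The genes run from MYC at 37.02, 42.49 and 44.76 FPKM to EGR1 at 0.11, 0.12 and 0.11 FPKM, and FOS and EGR1 stand below 1 FPKM in every library.

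Over the 7 compared members, none was counted as higher or lower in A740003 over PBS, where 3.21% of all compared genes were higher and 10.6% were lower. The intervals of 1 member (DUSP6) lay above 1 and of 2 (JUN and MYC) below it, as did those of 26.6% and 26.2% of all genes. The members' log2 ratios ran from -0.21 to 0.27 with a median of -0.05, against 0.01 over all genes, and the median was 0.13 once the trend of the ratios with transcript GC content and length was removed. In A438079 over PBS, 1 member of 7, JUNB, was lower and none was higher, where 9.43% of all genes were lower and 1.63% were higher. The interval of DUSP6 lay above 1 and that of JUNB below it, against 22.9% of genes above and 23.2% below. The median was -0.15, against -0.00 over all genes, and it was 0.02 with that trend removed, so neither median has a stable sign. In A740003 over A438079, 1 member of 7, JUNB, was higher and none was lower, where 2.52% of genes were higher and 2.74% were lower, and the median was 0.04, which became -0.04 with FOS and EGR1 let in by dropping the filter. The intervals of JUNB, SPRY2 and DUSP6 lay above 1 and that of MYC below it, against 16.1% of genes above and 16.8% below. The comparisons with PBS share that library. In bulk RNA of a cell line, fewer cells carrying a transcript and less of it per cell cannot be told apart.

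**Figure D2:**
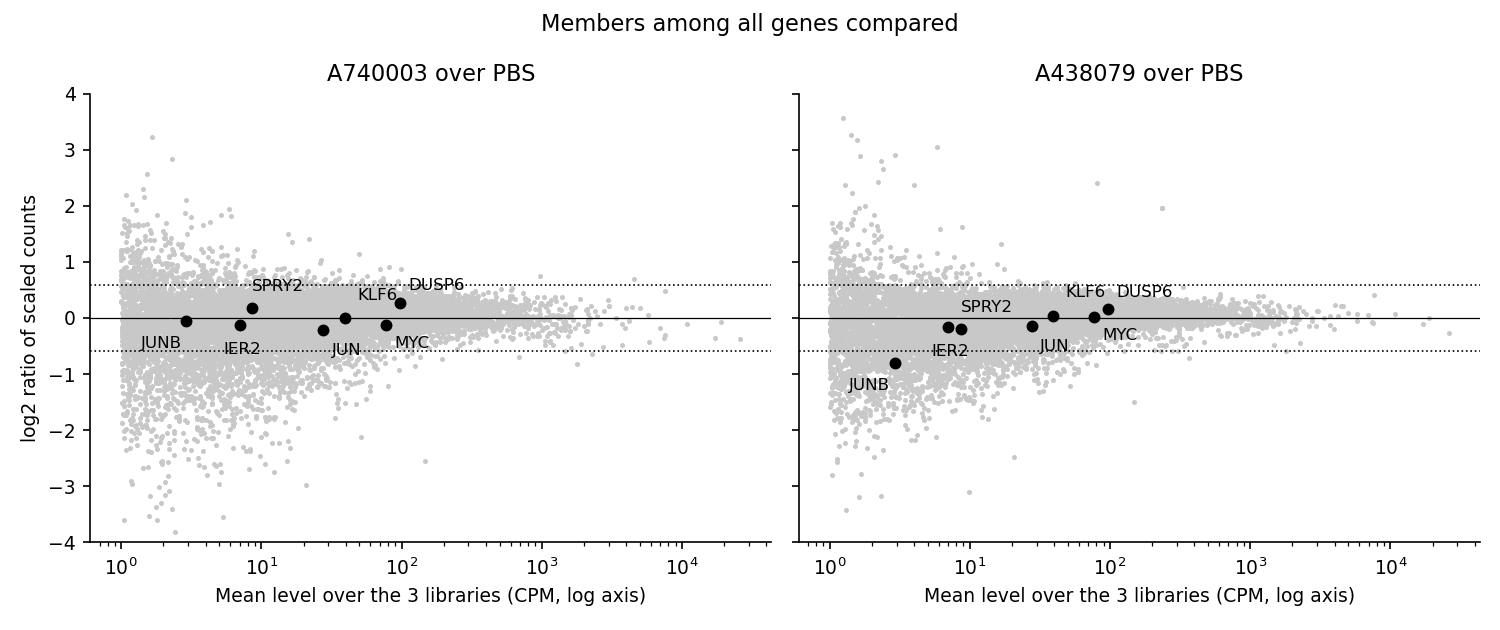
Grey points are the compared genes, by mean level over the 3 libraries (CPM, log axis) and log2 ratio to PBS, and black points the 7 compared members, with dotted lines at 1.5-fold. The axis ends at 4 either way, which leaves out 20 genes for A740003 and 18 for A438079, and JUNB with A438079 is the only member outside the dotted lines.

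FOS and EGR1, the most typical immediate early genes of the set, gave too few counts to compare. FOS, a subunit of the AP-1 transcription factor, is ENSG00000170345 on chromosome 14. It had 4 counts in A740003 cells, 6 in A438079 cells and 8 in PBS cells. These counts allow 0.0552 to 0.519 CPM in A740003 cells, 0.112 to 0.666 CPM in A438079 cells and 0.178 to 0.814 CPM in PBS cells, and the ranges overlap. The ratio to PBS was 0.489 (0.108 to 1.83) with A740003 and 0.751 (0.215 to 2.47) with A438079. On the FPKM scale the order of FOS changed, with 0.37 FPKM in A740003 cells, 0.18 FPKM in A438079 cells and 0.23 FPKM in PBS cells, so no direction is given for it.

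EGR1, a zinc finger factor that responds to serum and growth factors, is ENSG00000120738 on chromosome 5. It had 6 counts in A740003 cells, 7 in A438079 cells and 6 in PBS cells. Relative to PBS the ratio was 0.978 (0.261 to 3.66) with A740003 and 1.17 (0.336 to 4.21) with A438079. A difference within these intervals was not detectable at this depth. Among 30 other listed immediate early genes, 11 were also below the filter, and 6 of these, EGR2, EGR3, EGR4, KLF2, NR4A2 and PTGS2, had no count in any library.

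JUNB was the one member past the threshold in any comparison. It encodes an AP-1 subunit that can pair with FOS in place of JUN, and it is ENSG00000171223, chr19:12791496-12793315 on the plus strand in GENCODE release 29. JUNB had 66 counts in A740003 cells, 38 in A438079 cells and 67 in PBS cells. A438079 cells had the low value, and A740003 and PBS cells were 1 count apart. The ratio to PBS was 0.568 (0.371 to 0.858) with A438079, counted as lower, and 0.964 (0.675 to 1.37) with A740003. Over A438079, the ratio in A740003 cells was 1.70 (1.12 to 2.60), counted as higher.

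Both JUNB results rest on few counts and on 1 library each. JUNB lies on the opposite strand to HOOK2 with overlapping exons, and whether the counting used strand is unknown. HOOK2, an adaptor between microtubules and membranes, had 69.55 expected counts in A740003 cells, 73 in A438079 cells and 92 in PBS cells. The sum of both genes had a ratio to PBS of 0.837 (0.661 to 1.06) for A740003 and 0.699 (0.544 to 0.897) for A438079, short of 1.5-fold, and a ratio of 1.20 (0.924 to 1.55) in A740003 over A438079 cells. JUNB transcripts are also rich in G and C, at 64.9%, above 97.4% of compared genes, and genes counted as lower had a median of 59.1% with A740003 and 59.3% with A438079, against 47.5% over all. After removal of the trend on GC content and length, JUNB in A438079 cells stood at 0.665 of PBS with an interval that reached 1 and was no longer counted as lower. In A740003 over A438079 cells it stood at 1.62 (1.07 to 2.48) and was still counted as higher.

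JUN, the AP-1 subunit that FOS pairs with, did not pass the threshold. It is ENSG00000177606, chr1:58780788-58784327 on the minus strand. It had 513 counts in A740003 cells, 523 in A438079 cells and 582 in PBS cells. Both antagonist libraries were below PBS, with ratios of 0.862 (0.764 to 0.973) for A740003 and 0.90 (0.798 to 1.01) for A438079. In A740003 over A438079 cells the ratio was 0.958 (0.846 to 1.08). After removal of that trend, the log2 ratio of JUN to PBS was -0.06 with A740003 and 0.02 with A438079.

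KLF6, a zinc finger factor known as a growth suppressor that is also induced by injury in liver, did not pass the threshold in any comparison. It is ENSG00000067082, chr10:3775996-3785281 on the minus strand. KLF6 had 770 counts in A740003 cells, 775 in A438079 cells and 756 in PBS cells. The ratio to PBS was 0.996 (0.90 to 1.1) with A740003 and 1.03 (0.928 to 1.14) with A438079. In A740003 over A438079 cells it was 0.970 (0.877 to 1.07). The deposited FPKM ratio to PBS was 1.15 with A740003 and 1.09 with A438079, and after removal of the GC and length trend the log2 ratio of counts was -0.11 with A740003 and -0.06 with A438079, so no direction is given for KLF6.

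IER2, a small nuclear protein made early after growth factor signals, is ENSG00000160888, chr19:13150415-13154908 on the plus strand. It had 137 expected counts in A740003 cells, 130.05 in A438079 cells and 146.14 in PBS cells. The ratio to PBS was 0.918 (0.722 to 1.17) with A740003 and 0.892 (0.699 to 1.14) for A438079, and neither interval excludes 1. IER2 transcripts were 61.7% G and C, above 92.4% of compared genes. Its log2 ratio to PBS was -0.12 with A740003 and -0.16 with A438079. After removal of that trend the direction turned, to 0.33 with A740003 and 0.27 with A438079.

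MYC, the transcription factor of growth and ribosome production, is ENSG00000136997. It had 1434 counts in A740003 cells, 1548 in A438079 cells and 1531 in PBS cells. A740003 cells had the low value, while A438079 and PBS cells were close. Against PBS the ratio was 0.916 (0.852 to 0.985) with A740003 and 1.01 (0.943 to 1.09) with A438079. In A740003 over A438079 cells it was 0.905 (0.841 to 0.973). None of the ratios passed 1.5-fold. After removal of the GC and length trend the log2 ratio to PBS was -0.08 with A740003 and 0.09 with A438079.

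DUSP6, the cytoplasmic phosphatase that removes phosphate from ERK, had the highest ratio to PBS of the 7 compared members, as scaled, in both antagonist libraries. It is ENSG00000139318, chr12:89347232-89353271 on the minus strand. DUSP6 had 2098.62 expected counts in A740003 cells, 1898.66 in A438079 cells and 1703.75 in PBS cells. The ratio to PBS was 1.20 (1.13 to 1.29) for A740003 and 1.12 (1.05 to 1.19) for A438079, and A740003 over A438079 was 1.08 (1.01 to 1.15). All 3 intervals exclude 1 and none reaches 1.5-fold. After removal of the GC and length trend the log2 ratio to PBS was still above 0, at 0.21 with A740003 and 0.10 with A438079, and IER2 then stood above it. An antisense gene, AC024909.2, overlaps its exons with 19.38 expected counts in A740003 cells, 17.34 in A438079 cells and 6.25 in PBS cells. The sum of both genes had ratios of 1.21 (1.14 to 1.29) with A740003 and 1.12 (1.05 to 1.20) with A438079.

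SPRY2, an inhibitor of receptor tyrosine kinase signalling upstream of RAF, is ENSG00000136158, chr13:80335976-80340951 on the minus strand. It had 193 counts in A740003 cells, 145 in A438079 cells and 166 in PBS cells, so the antagonist libraries stood on either side of PBS. Its ratio over PBS was 1.14 (0.919 to 1.41) with A740003 and 0.875 (0.695 to 1.1) with A438079. In A740003 over A438079 cells it was 1.30 (1.04 to 1.62), with an interval that excludes 1 and a ratio under 1.5-fold. The log2 ratio to PBS after removal of the trend was 0.18 with A740003 and -0.21 with A438079.

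**Figure D3:**
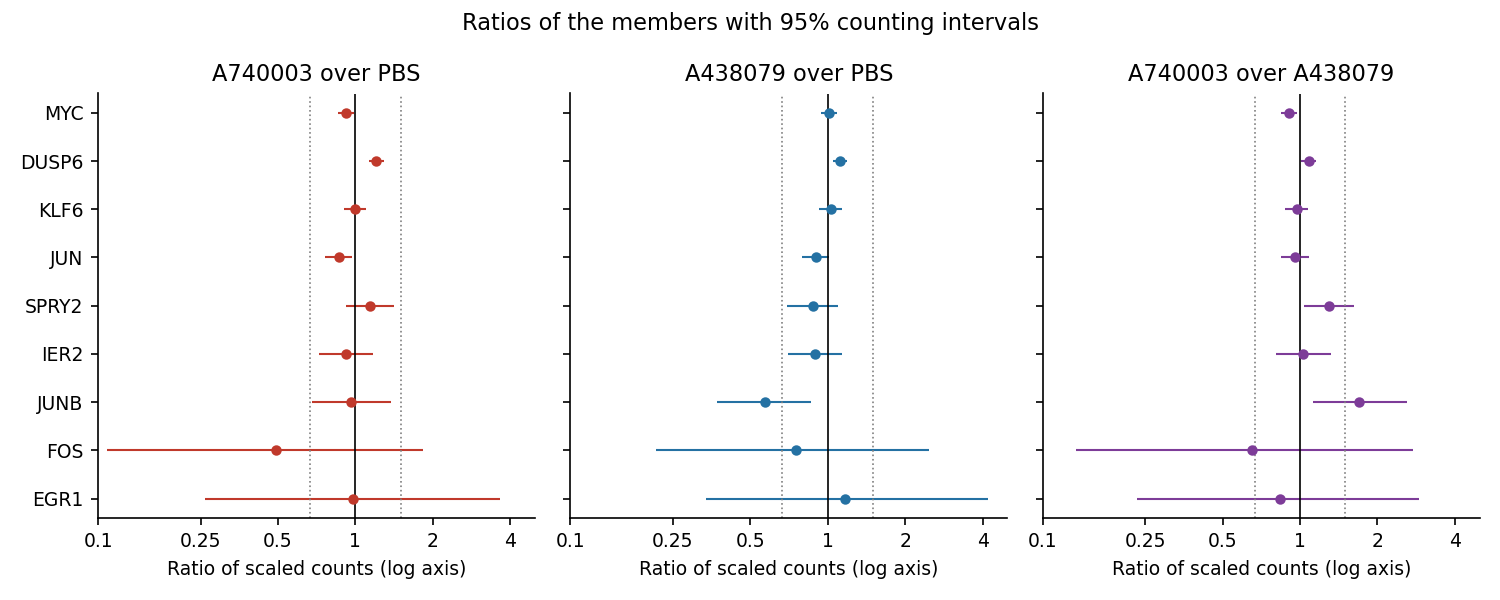
Points give each ratio of TMM-scaled counts (log axis) and bars its 95% counting interval, with dotted lines at 1.5-fold either way. JUNB lies past the line in A438079 over PBS (0.568) and in A740003 over A438079 (1.70). FOS, with too few counts to compare, lies past it in A740003 over PBS (0.489) and in A740003 over A438079 (0.651), with intervals that include 1. The intervals of FOS and EGR1 are the widest.

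The other immediate early genes were taken from a list of known ones, chosen with earlier results of these data known. Of 19 compared, 1 was higher and 8 (42.1%) were lower with A740003, against 3.21% and 10.6% of all genes. Their median log2 ratio was -0.28. With A438079, 0 were higher and 6 (31.6%) were lower, against 1.63% and 9.43% of all genes, and the median log2 ratio was -0.41. After removal of the trend, 2 were higher and 5 lower with A740003, where 3.49% of all genes were higher and 6.73% were lower. With A438079, 1 was higher and 3 were lower, where 1.96% of all genes were higher and 4.9% were lower. Genes named from this and later lists, unless said otherwise, are those furthest from PBS among list genes averaging at least 5 CPM. ZFP36L2, which binds AU-rich elements of short-lived transcripts, had 307 counts in A740003 cells, 346 in A438079 cells and 672 in PBS cells, with ratios to PBS of 0.447 (0.389 to 0.512) for A740003 and 0.516 (0.452 to 0.588) for A438079. SRF, the factor of the CArG box, had 154 counts in A740003 cells, 184 in A438079 cells and 298 in PBS cells, and ratios of 0.505 (0.413 to 0.616) and 0.618 (0.512 to 0.746). With the trend removed, SRF was no longer counted as lower, at log2 ratios of -0.29 with A740003 and -0.09 with A438079.

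JUND, the third JUN family gene, had 134 counts in A740003 cells, 109 in A438079 cells and 202 in PBS cells. Its ratio to PBS was 0.649 (0.518 to 0.811) with A740003 and 0.540 (0.424 to 0.686) with A438079. The deposited FPKM of JUND was 6.34 in A740003 cells, 3.55 in A438079 cells and 6.31 in PBS cells, so the lower A740003 value was seen in counts and not in FPKM. With the trend removed its log2 ratio was -0.40 with A740003, no longer counted as lower, and -0.62 with A438079. FOSL1, a FOS family gene singled out after its values were seen, was higher with A740003 at 54 counts in A740003 cells, 34 in A438079 cells and 27 in PBS cells, a ratio to PBS of 1.96 (1.21 to 3.23).

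Of 17 other ERK feedback and output genes, 0 were higher and 4 (23.5%) were lower with A740003, and 0 were higher and 2 (11.8%) were lower with A438079, against 10.6% and 9.43% of all genes lower. The shares of all genes that were higher were small too, at 3.21% with A740003 and 1.63% with A438079. After removal of the trend 5 were lower with A740003 and 1 with A438079, against 6.73% and 4.9% of all genes. PHLDA1 had 857 counts in A740003 cells, 1084 in A438079 cells and 1286 in PBS cells, with ratios to PBS of 0.652 (0.597 to 0.711) and 0.844 (0.778 to 0.916). LIF, a cytokine, had ratios of 0.738 with A740003 and 0.584 with A438079, the second of which was no longer past the threshold with the trend removed. SPRED1, a SPRY relative, had ratios of 0.694 and 0.876. With the trend removed its log2 ratios were -0.73 with A740003, then past 1.5-fold, and -0.35 with A438079. DUSP1, a nuclear MAPK phosphatase singled out after its values were seen, had 53 counts in A740003 cells, 62 in A438079 cells and 89 in PBS cells, a ratio of 0.582 (0.407 to 0.828) with A740003. SPRY4, also chosen after its values were seen, had 521, 469 and 435 counts in A740003, A438079 and PBS cells. Of the 22 compared genes of the ERK cascade itself, 0 were higher or lower with A740003, and 1, KSR1, a scaffold named for that reason after its values were seen, was lower with A438079, and none was with the trend removed, where the ratio of KSR1 was 0.724. PTPN11, the phosphatase SHP2 that helps activate RAS, had 5159 counts in A740003 cells, 4792 in A438079 cells and 3778 in PBS cells, with ratios to PBS of 1.34 and 1.27. GAB1, a docking protein for it, had ratios of 1.38 with A740003 and 1.39 with A438079, and RASA2, a RAS GTPase-activating protein, 1.30 and 1.41, all short of 1.5-fold. The deposited FPKM of GAB1 ran the other way, at 5.0 in A740003 cells and 5.33 in A438079 cells against 5.62 in PBS cells, so no direction is given for it.

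**Figure D4:**
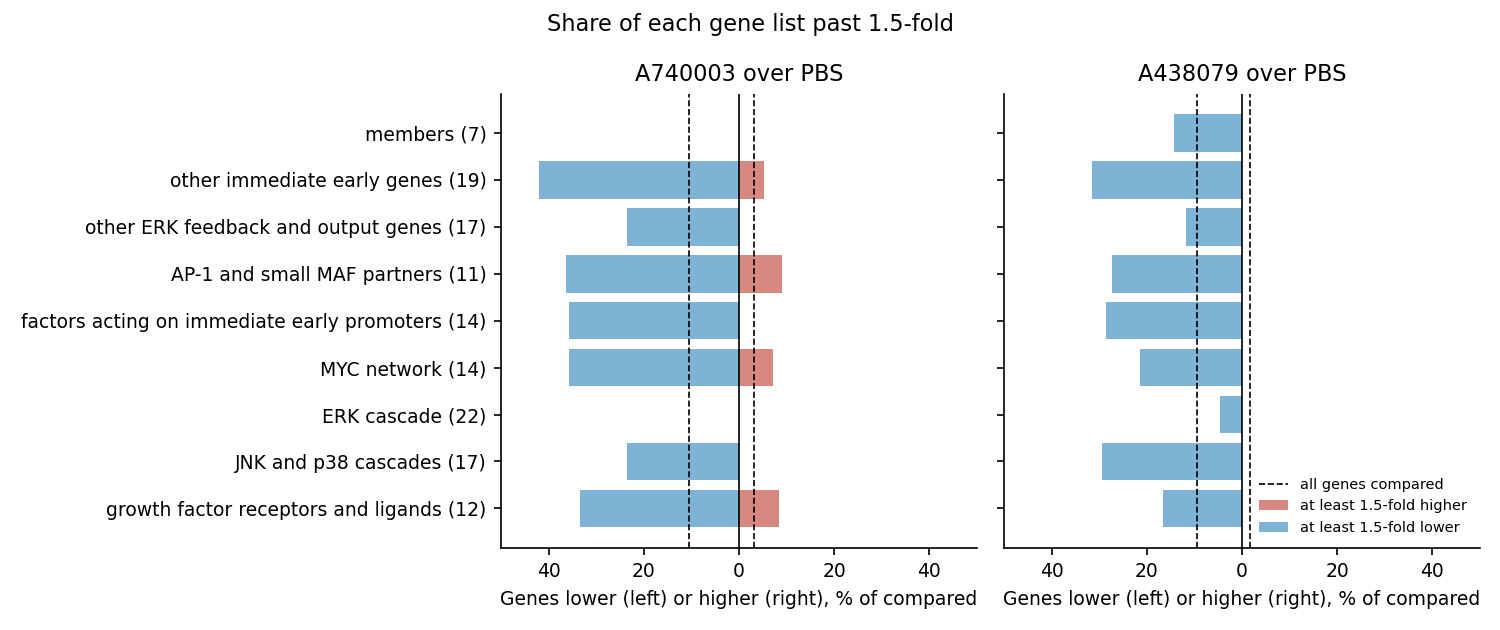
Bars give the percentage of compared genes in each list, with their number in brackets, that were at least 1.5-fold lower (left) or higher (right) than PBS with an interval excluding 1, and dashed lines give the same over all compared genes. No member was past the threshold with A740003 and 14.3% (JUNB) was lower with A438079, against 42.1% and 31.6% of the other immediate early genes.

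In the lists that follow, the share of all compared genes that was lower was 10.6% with A740003 and 9.43% with A438079 as scaled, against 6.73% and 4.9% after removal of the GC and length trend. Higher genes made up 3.21% and 1.63% as scaled, and 3.49% and 1.96% with the trend removed. Among 17 compared genes of the JNK and p38 cascades, 4 (23.5%) were lower with A740003 and 5 (29.4%) with A438079, and none was higher. With the trend removed, 1 was lower and 1 higher with A740003, and 0 were lower and 1 was higher with A438079. MAP3K11, a kinase above JNK, had 180 counts in A740003 cells, 246 in A438079 cells and 410 in PBS cells, with ratios to PBS of 0.429 with A740003 and 0.601 with A438079. MAP2K7, the kinase between it and JNK, had ratios of 0.503 with A740003 and 0.615 with A438079. Neither was past the threshold with the trend removed, at log2 ratios of -0.49 and -0.13 for MAP3K11 and -0.31 and -0.09 for MAP2K7. MAPKAPK2, a kinase below p38, had ratios of 0.720 with A740003 and 0.646 with A438079.

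Of 12 receptor and ligand genes, 4 (33.3%) were lower and 1, EGFR, was higher with A740003, at 141 counts against 81 in PBS cells, and 2 (16.7%) were lower with A438079. Trend removal left 2 lower and 1 higher with A740003, and 2 were lower with A438079. EGFR was named after its values were seen. ERBB2, its dimer partner, had ratios to PBS of 0.450 with A740003 and 0.680 with A438079. FGFR4 had 435 counts in A740003 cells, 422 in A438079 cells and 939 in PBS cells, with ratios of 0.453 with A740003 and 0.450 with A438079. With the trend removed, its log2 ratio was -0.55 with A740003, no longer past the threshold, and -0.61 with A438079. IGF1R had 178 counts in A740003 cells, 234 in A438079 cells and 404 in PBS cells, with ratios of 0.431 with A740003 and 0.580 with A438079.

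Of 11 AP-1 and small MAF partners, 1 was higher and 4 (36.4%) were lower with A740003, and 3 (27.3%) were lower with A438079. Trend removal left 1 higher and 1 lower with A740003, and 1 was lower with A438079. MAFG had ratios to PBS of 0.659 with A740003 and 0.683 with A438079. Its log2 ratios with the trend removed were -0.26 and -0.24, so it was no longer counted as lower with A740003. MAFK had ratios of 0.670 and 0.567, but its log2 ratios were 0.10 and -0.19 with the trend removed, short of the threshold. Of 14 factors acting on immediate early promoters, 5 (35.7%) were lower with A740003 and 4 (28.6%) with A438079, and none was higher. Trend removal left 4 lower with A740003 and 1 with A438079. EP300, a histone acetyltransferase recruited by many of these factors, had 179 counts in A740003 cells, 200 in A438079 cells and 332 in PBS cells, with ratios of 0.527 with A740003 and 0.603 with A438079, the second at a log2 ratio of -0.57 and short of the threshold with the trend removed. YY1, a zinc finger factor among them, had ratios of 0.656 with A740003 and 0.811 with A438079. Of 14 MYC network genes, 5 (35.7%) were lower and 1, MXD3, was higher with A740003, and 3 (21.4%) were lower with A438079. With the trend removed, 2 were lower and 1 higher with A740003, and 1 was lower and 1 higher with A438079. MLXIPL had ratios to PBS of 0.613 with A740003 and 0.566 with A438079, MXD4 0.601 and 0.804, and MYCN 0.614 and 0.676. After trend removal the log2 ratios were -0.11 and -0.27 for MLXIPL, -0.45 and -0.05 for MXD4, and -0.60 and -0.45 for MYCN. MXD3, a partner of MAX named after its values were seen, had 87 counts in A740003 cells, 71 in A438079 cells and 51 in PBS cells. Lists share genes such as SRF, JUND and FOSL1.

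**Figure D5:**
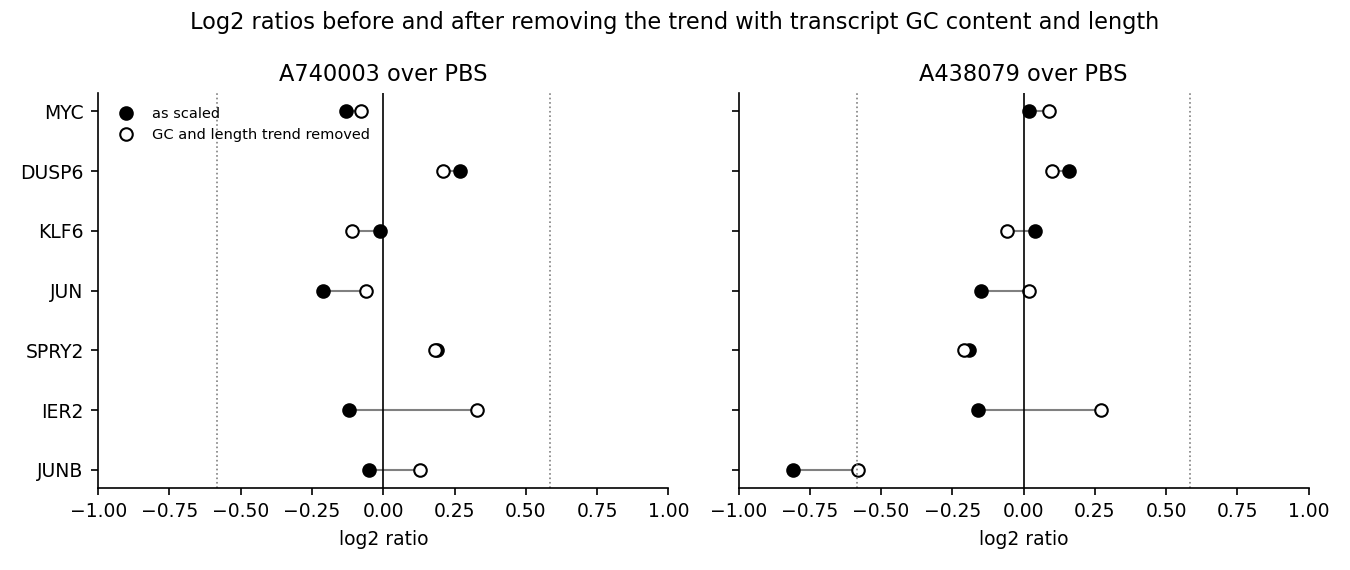
Filled circles give the log2 ratio to PBS of the 7 compared members as scaled, and open circles the ratio with the trend on transcript GC content and length removed, with dotted lines at 1.5-fold. JUNB and IER2, the members richest in G and C, shifted upward in both comparisons, as did JUN and MYC. JUNB with A438079 stood at -0.58 with the trend removed and -0.81 as scaled.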

How the data were processed

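The authors deposited expected counts per gene, estimates that need not be whole (35.1%, 34.8% and 33.3% of values above 0 were not whole in A740003, A438079 and PBS), and FPKM values per gene, scaled by the authors for length and library size. Columns were matched to samples by the letter each label gives. The submitters' processing notes name GRCm38, a mouse build, although the rows are human genes, and the build used is unclear. The aligner, counting tool, annotation and use of strand were not given in the sources used here. The 116 rows without an Ensembl identifier held 0.0792%, 0.0775% and 0.0853% of counts and stayed in the totals.

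Expected counts were rounded, and library sizes were scaled by TMM (edgeR 4.0.16, R 4.3.3). Log2 ratios used a pseudocount of 0.5 counts, and intervals are Clopper-Pearson at 95%. No p-value was computed, since each treatment has 1 library. Coordinates, transcript GC content and length (longest transcript) come from GENCODE release 29 on GRCh38, the last for 11908 genes (97% of those compared), and the trend was the running median over the 201 nearest genes in rank. The rule for the members names genes and uses no value, but the members and lists were chosen with earlier results of these data known. Up to 3 genes per list were to be named, those with a mean of at least 5 CPM and the largest absolute log2 ratio to PBS with either antagonist. These are thus the most extreme genes at that level in their lists. Others named are said to be chosen after their values were seen. Scripts were tested on simulated data. Alternatives were total, upper quartile and DESeq2 1.42.0 scaling, other filters and folds, unrounded counts, FPKM, protein-coding genes and the trend removal.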

Additional observations from a re-analysis of the deposited data

How the results depend on the processing

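No paired analysis was possible because each treatment has 1 library. Of 180 alternative values of the main counts and medians, 39 were counted as moved and 141 were not. Some of the 141 could not change, such as the members' median under another fold. Others shifted without being counted as moved. With no filter, 1777 genes were lower in A740003 over PBS and 1639 in A438079 over PBS, against 1297 and 1157. With FPKM and a pseudocount of 1, 939 and 824 were lower. The median log2 ratio of the members was not counted as moved under any setting, but its sign changed under some. With the GC and length trend removed it was 0.13 for A740003 over PBS, against -0.05 as reported, and 0.02 for A438079 over PBS, against -0.15. For A740003 over A438079 it was -0.04 with no filter and -0.00 with a mean of at least 5 CPM, against 0.04. No main count or median was counted as moved under scaling by total counts, the upper quartile or DESeq2 size factors, or with unrounded counts. For JUNB, the count of members lower in A438079 over PBS became 0 with a mean of at least 5 CPM, which drops JUNB, with a fold of 2, with FPKM and a pseudocount of 1, and after removal of the GC and length trend. The count of members higher in A740003 over A438079 became 0 under the first 3 of these and 2 with a log2 threshold of 0.32, which adds SPRY2.

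Over all genes, A740003 over PBS had 769 higher with no filter, 149 higher and 658 lower with a mean of at least 5 CPM, 146 and 666 with a fold of 2, 1402 and 2033 with a log2 threshold of 0.32, 636 higher with FPKM and a pseudocount of 0.1, 261 higher among protein-coding genes and 801 lower with the trend removed. A438079 over PBS had 512 higher with no filter, 57 higher and 525 lower at 5 CPM, 104 and 459 with a fold of 2, 735 and 1841 with a log2 threshold of 0.32, 391 higher with FPKM and a pseudocount of 0.1, 112 higher among protein-coding genes and 583 lower with the trend removed. A740003 over A438079 had 685 higher and 622 lower with no filter, 66 and 103 at 5 CPM, 124 and 139 with a fold of 2, 722 and 712 with a log2 threshold of 0.32, 661 and 542 with FPKM and a pseudocount of 0.1, and 221 lower with a pseudocount of 1. The ratio of DUSP6 to PBS ranged from 1.16 to 1.27 with A740003 and from 1.07 to 1.12 with A438079, and that of FOS in A740003 cells, with 4 to 8 counts behind it, from 0.472 to 1.42. Depth limits FOS, EGR1 and JUNB most. Intervals cover counting error only, and without replicate libraries no ratio here can be set against the spread between cultures.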
